A study of Mus musculus with 2 samples.

Results

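The respiratory chain genes described here are the protein-coding genes of the deposited table whose symbols begin with Nduf, Uqcr, Atp5, mt-Nd, mt-Co, mt-Cytb or mt-Atp, those of the Cox4 to Cox8 families, and Sdha, Sdhb, Sdhc, Sdhd, Cyc1 and Cycs. They number 104 of 19595 genes, 91 of them nuclear and 13 encoded by the mitochondrial genome. Total RNA came from neural stem cells of the brain, taken from mice of the ICR strain on embryonic day 13. The knockdown library is labelled sh1 with the genotype KO, and the control library psicor with the genotype WT. The series title names Ccdc25 and neurogenesis. The labels give no promoter, culture method or number of animals per library, and the table has 1 column of counts per group although the design text speaks of triplicates. No difference below therefore has a replicate check or a test. Beside a ratio of knockdown over control stands its 95% interval, exact and conditional on the summed counts of both libraries, which takes in counting error and no other.

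The respiratory chain sits in the inner mitochondrial membrane. Complex I takes electrons from NADH and complex II from succinate. Ubiquinone carries them to complex III, and cytochrome c carries them on to complex IV, which reduces oxygen. Complex V, the ATP synthase, uses the proton gradient that complexes I, III and IV build. Mitochondrial DNA encodes a few core subunits of complexes I, III, IV and V, and all subunits of complex II, cytochrome c and the remaining subunits come from the nucleus. Mitochondrial genes are transcribed as long precursors from both strands and then cut apart, so their messages share promoters.

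The knockdown library held 16058407 counts and the control library 16549682. Levels are given as CPM, the counts scaled to a common library size with edgeR's TMM factors. The minimum for a gene to be counted was 1 CPM on average over the libraries. Of the members, 99 passed this minimum, all of them with at least 1 CPM in each library, and 5 did not. Ccdc25 itself had 411 counts in the knockdown library and 553 in the control library, a ratio of 0.794 (0.697 to 0.904). Its log2 fold of -0.33 lay between the quartiles of all genes past the minimum, -0.36 and 0.36. Of those genes, 33.6% also had an interval below 1. All 10 neural stem cell markers examined passed the minimum, and their summed level was 8795 CPM in the knockdown and 6724 CPM in the control library. Sums for other cell types also differed. Astrocyte markers stood at 1667 CPM in the knockdown and 430 CPM in the control library. Neuronal markers stood at 1179 CPM in the knockdown and 2693 CPM in the control library, with 6 of 8 at least 2-fold lower. Map2 made up 527 CPM of the neuronal sum in the knockdown and 489 CPM in the control library. Mesenchymal markers stood at 40.5 CPM in the knockdown and 327 CPM in the control library. All 5 of them past the minimum were at least 2-fold lower. Acta2 made up 22.8 CPM of the mesenchymal sum in the knockdown and 261 CPM in the control library. Markers of the oligodendrocyte lineage stood at 4610 CPM in the knockdown and 2882 CPM in the control library, with 5 of 8 at least 2-fold higher, and muscle markers at 36.2 CPM in the knockdown and 10.6 CPM in the control library. Actc1 made up 34.2 CPM of the muscle sum in the knockdown and 9.20 CPM in the control library. Endothelial markers summed to 1.14 CPM in the knockdown and 2.37 CPM in the control library. Microglial markers summed to 2.47 CPM in the knockdown library, where 4 of 8 were at 0, and to 25.2 CPM in the control library. The part of these cell types in the values below was not tested. In bulk RNA a smaller share of a cell type and less RNA per cell cannot be told apart.

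None of the 99 members was 2-fold higher and none 2-fold lower in the knockdown library. Of all 14158 genes that passed the minimum, 7.64% lay 2-fold or more above and 7.76% 2-fold or more below the control library. The genomes differed in where their messages lay: 11 of the 12 mitochondrially encoded members past the minimum were above and 1 was below its control level, while 37 nuclear members were above and 50 below. Over all genes, 50.3% were below. The mitochondrially encoded members had a median log2 fold of 0.41, the nuclear members -0.03, and all genes past the minimum -0.0042. The counting interval of the ratio lay above 1 for 34 members (34.3%), against 33.2% of all genes, and below 1 for 33 (33.3%), against 33.6%. At a fold of 1.5, 5 members were higher and 3 lower, against 16% and 15.7% of all genes. Other scalings of the libraries moved every log2 fold by -0.05 to -0.02, so a median or sum above its control level by less than the shift changes side. With total counts this holds for the sums of complex II, of the nuclear subunits of complex I and of its accessory subunits. It also holds for the median of those nuclear subunits, and for the list and motif medians below that lie above 0 by up to 0.04.

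**Figure D1:**
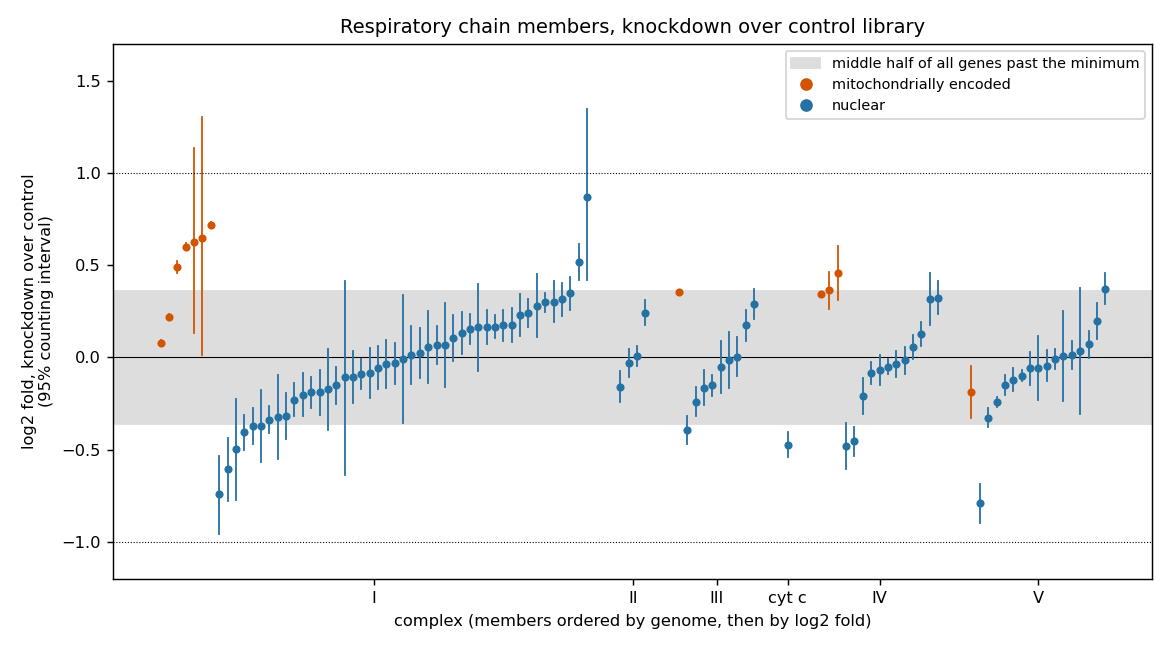
Log2 fold, knockdown over control library, of each respiratory chain member past the minimum (points, with 95% counting intervals as lines), by complex. The mitochondrially encoded members lie above 0 with 1 exception, and the nuclear members of complexes I to V lie on both sides of 0. The grey band holds the middle of all genes, between log2 folds of -0.36 and 0.36, and dotted lines mark 2-fold, which no point passes.

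The messages of the mitochondrial genome summed to 49288 CPM in the knockdown and 38728 CPM in the control library, a ratio of 1.27 (1.27 to 1.28). They made up 78.6% of all counts of the respiratory chain members in the knockdown library (exact Clopper-Pearson 95% interval 78.5% to 78.6%) and 73.4% in the control library (73.3% to 73.5%). This share does not depend on how the libraries are scaled. Nuclear members summed to 13455 CPM in the knockdown and 14053 CPM in the control library, a ratio of 0.957 (0.952 to 0.963).

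Along the mitochondrial genome the ratios differed from gene to gene. The genes are given here in the order of their positions on the plus strand, chrMT in the GRCm38 positions of the table. mt-Nd1 (chrMT:2751-3707), a core membrane subunit of complex I, had 102870 counts in the knockdown and 103987 in the control library, which is 6523 CPM in the knockdown and 6171 CPM in the control library and a ratio of 1.06 (1.05 to 1.07). mt-Nd2 (chrMT:3914-4951), also of complex I, stood at 3754 CPM in the knockdown and 3225 CPM in the control library, a ratio of 1.16 (1.15 to 1.18). mt-Co1 (chrMT:5328-6872), the catalytic subunit of complex IV and the member with the most counts, stood at 19432 CPM in the knockdown and 15296 CPM in the control library, a ratio of 1.27 (1.26 to 1.28). Up to this point each gene lay further above its control level than the gene before it. mt-Nd4 (chrMT:10167-11544) stood at 3578 CPM in the knockdown and 2358 CPM in the control library, a ratio of 1.52 (1.5 to 1.54). mt-Nd5 (chrMT:11742-13565) stood at 4281 CPM in the knockdown and 2599 CPM in the control library, a ratio of 1.65 (1.63 to 1.67). Both encode proton-pumping subunits of complex I, and their intervals do not overlap those of the 3 genes named before them. mt-Cytb (chrMT:14145-15288), the cytochrome b of complex III and the last protein-coding gene on this strand, stood at 10292 CPM in the knockdown and 8036 CPM in the control library, a ratio of 1.28 (1.27 to 1.29), close to that of mt-Co1. mt-Nd6 (chrMT:13552-14070), the complex I subunit encoded on the opposite strand, stood at 1200 CPM in the knockdown and 854 CPM in the control library, a ratio of 1.41 (1.38 to 1.44). It shares 14 bases with mt-Nd5, and whether counting used strand is not given in the sources used here, so reads from its strand and from the opposite one cannot be told apart.

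The ribosomal RNAs of the same genome lay the other way. mt-Rnr1 had 4793 counts in the knockdown and 6838 in the control library, a ratio of 0.749 (0.722 to 0.777), and mt-Rnr2 had 4905 counts in the knockdown and 7105 in the control library, a ratio of 0.738 (0.711 to 0.765). Both are transcribed ahead of mt-Nd1 on the same strand. Together they took 0.0604% of all counts in the knockdown and 0.0842% in the control library. mt-Co1 alone had 306458 counts in the knockdown and 257764 in the control library. How much ribosomal RNA the preparation of each library kept or removed was not tested.

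**Figure D2:**
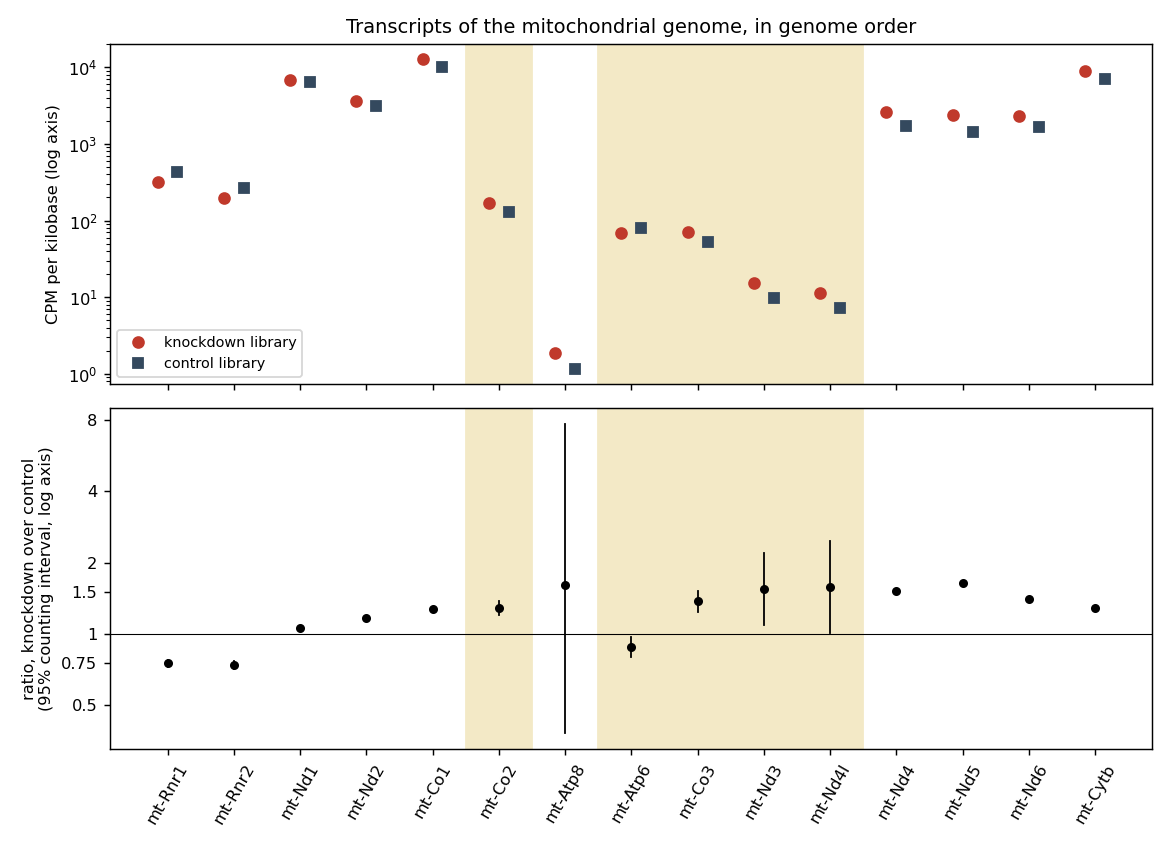
Transcripts of the mitochondrial genome in genome order, with the level in CPM per kilobase of exon in each library (upper panel, log axis) and the ratio, knockdown over control, with its 95% counting interval (lower panel, log axis). Shading marks the 5 genes with a near-identical annotated copy of nearly their whole length on chromosome 1. The ratio is below 1 for both ribosomal RNAs and for mt-Atp6, and the shaded genes lie at lower levels than mt-Co1 and mt-Nd4.

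The remaining mitochondrial genes, between mt-Co1 and mt-Nd4, had few counts in both libraries. A stretch of chromosome 1 holds a run of annotated pseudogenes that match them almost base for base. mt-Co2, mt-Atp6, mt-Co3 and mt-Nd4l matched Gm28661, Gm10925, Gm28437 and Gm10222 without a mismatch over 681, 678, 783 and 294 bases. mt-Nd3 matched Gm28438 with 1 mismatch over 345 bases, T3C, counted from 1 at the first base of mt-Nd3 and giving the mitochondrial base first. The first 100 bases of mt-Nd3 and mt-Atp6 and of their copies are printed to show how little there is for a read to tell them apart. They are 5′ to 3′ in GRCm38 and from GENCODE M21 transcripts, and a capital marks a base that differs within the pair.
mt-Nd3, chrMT:9459-9558, plus strand: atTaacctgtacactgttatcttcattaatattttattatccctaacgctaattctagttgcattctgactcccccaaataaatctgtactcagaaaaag
Gm28438, chr1:24613020-24613119, minus strand: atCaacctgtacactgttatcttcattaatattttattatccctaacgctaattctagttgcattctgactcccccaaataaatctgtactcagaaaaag
mt-Atp6, chrMT:7927-8026, plus strand: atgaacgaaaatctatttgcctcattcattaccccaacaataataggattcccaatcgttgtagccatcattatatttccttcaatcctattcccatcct
Gm10925, chr1:24614552-24614651, minus strand: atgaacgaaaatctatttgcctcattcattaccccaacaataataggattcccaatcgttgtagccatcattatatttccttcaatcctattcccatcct

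The counts of these 5 genes are uncertain, since the authors' counting could split or drop reads that match both places. Per kilobase of exon they lay between 11.3 and 167 CPM in the knockdown and between 7.19 and 130 CPM in the control library, where the other 7 members past the minimum lay between 2313 and 12578 CPM in the knockdown and between 1425 and 9900 CPM in the control library. mt-Co2, which encodes a copper-binding subunit of complex IV, had 1802 counts in the knockdown and 1495 in the control library, a ratio of 1.29 (1.20 to 1.38). mt-Co3, the third core subunit of complex IV, had 878 counts in the knockdown and 684 in the control library, a ratio of 1.37 (1.24 to 1.52). mt-Nd3 had 84 counts in the knockdown and 58 in the control library and a ratio of 1.55 (1.09 to 2.2), and mt-Nd4l had 53 counts in the knockdown and 36 in the control library and a ratio of 1.57 (1.01 to 2.47), both of complex I. mt-Atp6, whose product forms the proton path of complex V with the ring of subunit c, was the exception among the mitochondrial messages, with 747 counts in the knockdown and 909 in the control library and a ratio of 0.878 (0.796 to 0.968). Its copy Gm10925 had 2741 counts in the knockdown and 2058 in the control library, a ratio of 1.42 (1.34 to 1.51). With both added, mt-Atp6 and its copy had 3488 counts in the knockdown and 2967 in the control library, a ratio of 1.26 (1.20 to 1.32), so the direction for mt-Atp6 turns with the counts of the copy. For mt-Nd3 the sum with the copy was 244 in the knockdown and 285 in the control library, a ratio of 0.915 (0.768 to 1.09), and there too the direction turns. Adding the copy left the ratio of mt-Co2 at 1.27, that of mt-Co3 at 1.38 and that of mt-Nd4l at 1.8. The copy Gm28439 covers 876 of the 1378 bases of mt-Nd4 without a mismatch, and Gm29216 matched 483 of the 1545 bases of mt-Co1. Gm13340 on chromosome 2 matched all 1545 bases of mt-Co1 at 97.6% identity. It had 254 counts in the knockdown and 160 in the control library. Gm13339 matched 510 of the 1038 bases of mt-Nd2 at 96.7%, and Gm4076 matched 954 of the 1824 bases of mt-Nd5 at 95.2%. Counts of mt-Nd4, mt-Co1, mt-Nd2 and mt-Nd5 are thus also uncertain where a read matches both places. mt-Atp8, the other mitochondrial subunit of complex V, had 6 counts in the knockdown and 4 in the control library and did not pass the minimum.

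The nuclear members were described by how far each lay from its control level. Of the 87 past the minimum, 69 (79.3%) were within 1.25-fold, against 46.0% of all genes past the minimum and 57.1% of genes averaging 100 CPM or more. Their median absolute log2 fold was 0.16, against 0.36 over all genes and 0.27 over those averaging 100 CPM or more. Past 1.5-fold were Ndufs3 above and Ndufaf2, Ndufaf4 and Atp5g1 below.

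**Figure D3:**
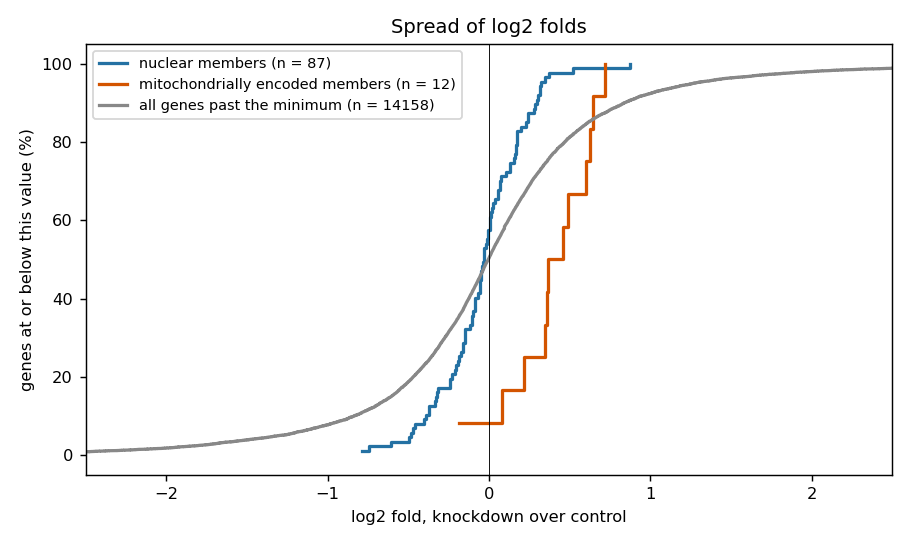
Cumulative share of genes by log2 fold, knockdown over control library, for nuclear members, mitochondrially encoded members and all genes past the minimum. The nuclear curve is steeper than that of all genes and crosses near 0, with a median of -0.03, and the mitochondrial curve lies to the right, with a median of 0.41.

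Complex I has the most nuclear members, and its 37 nuclear subunits past the minimum were split, 19 above and 18 below their control level, with a median log2 fold of 0.01. Their sum was 3777 CPM in the knockdown and 3644 CPM in the control library, a ratio of 1.04 (1.02 to 1.05). It turns to just below its control level when total counts set the scale. The 7 nuclear core subunits, most of which carry the flavin and iron-sulfur clusters or bind ubiquinone, summed to 1055 CPM in the knockdown and 977 CPM in the control library. The 30 accessory subunits summed to 2722 CPM in the knockdown and 2666 CPM in the control library, a sum that also turns with total counts. Ndufs8, a core subunit that binds iron-sulfur clusters, lay below, at 1433 counts in the knockdown and 1979 in the control library, a ratio of 0.774 (0.722 to 0.829). It was named after its value was seen, as was Ndufv3, an accessory subunit at 1908 counts in the knockdown and 1424 in the control library, a ratio of 1.43 (1.34 to 1.53). Ndufc2, an accessory subunit, had 4243 counts in the knockdown and 4037 in the control library, a ratio of 1.12 (1.08 to 1.17). Ndufs3, another core subunit, had the largest ratio of the nuclear members past the minimum, 1.84 (1.34 to 2.54), from 110 counts in the knockdown and 64 in the control library. That value is uncertain, since 792 bases of its transcript match the pseudogene Gm12251 at 98.6% identity, and Gm12251 had 117 counts in the knockdown and 93 in the control library.

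Assembly factors of complex I, which build the complex and are not part of it, made up 8 of the nuclear members. Of these 8, 3 were above and 5 below their control level, with a median log2 fold of -0.27, and the counting interval lay below 1 for 4 and above 1 for 0. The interval lay below 1 for 33.6% and above 1 for 33.2% of all genes past the minimum. Ndufaf2 had 290 counts in the knockdown and 519 in the control library, a ratio of 0.597 (0.515 to 0.691). It shares 1955 of its 2978 exonic bases with a lincRNA gene on the opposite strand, so its value is uncertain if reads were counted without strand. Ndufaf4 had 462 counts in the knockdown and 751 in the control library and a ratio of 0.657 (0.584 to 0.739). Ndufaf6 had a ratio of 0.709 (0.585 to 0.856) and Ndufaf5, which modifies a core subunit, 0.774 (0.676 to 0.885). Intervals of the other 4 held 1: Ndufaf7 had a ratio of 0.888, Ndufaf3 1.04, Ndufaf1 1.05 and Ndufaf8 1.12.

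Complex II, which also works in the citric acid cycle, has 4 subunits, all of them nuclear, and its sum was 863 CPM in the knockdown and 845 CPM in the control library, a ratio of 1.02 (0.998 to 1.05) that was 0.985 when total counts set the scale. Sdha, the flavoprotein, had 5138 counts in the knockdown and 5456 in the control library, a ratio of 1.01 (0.968 to 1.05). Sdhb, the iron-sulfur subunit, had 2712 counts in the knockdown and 2956 in the control library, a ratio of 0.980 (0.930 to 1.03). The membrane anchors lay on opposite sides of 1. Sdhc had 3605 counts in the knockdown and 3256 in the control library, a ratio of 1.18 (1.13 to 1.24), and Sdhd had 2151 counts in the knockdown and 2565 in the control library, a ratio of 0.896 (0.846 to 0.949).

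Among the 9 nuclear members of complex III, 3 were above and 6 below their control level, with a median log2 fold of -0.05. Cyc1, the cytochrome c1 subunit, had 4716 counts in the knockdown and 5594 in the control library, a ratio of 0.901 (0.866 to 0.937). Uqcrq, a small accessory subunit, had 2401 counts in the knockdown and 3369 in the control library and the lowest ratio of the complex, 0.762 (0.722 to 0.803). Uqcrfs1, the Rieske iron-sulfur protein, had 2356 counts in the knockdown and 2975 in the control library, a ratio of 0.846 (0.801 to 0.894). Uqcrh, the hinge protein that docks cytochrome c, lay above, at 2626 counts in the knockdown and 2298 in the control library, a ratio of 1.22 (1.15 to 1.29). The nuclear members summed to 1207 CPM in the knockdown and 1282 CPM in the control library, a ratio of 0.941 (0.923 to 0.960). With mt-Cytb added the complex had a ratio of 1.23, so the direction of its sum rests on that gene.

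Cytochrome c itself, encoded by Cycs (chr6:50562563-50566538, minus strand), was at 180 CPM in the knockdown and 249 CPM in the control library. Its 2833 counts in the knockdown and 4199 in the control library gave a ratio of 0.721 (0.687 to 0.756). Gm10053 on chromosome 19, annotated as protein-coding, matches it with 1 mismatch over 946 bases and had 339 counts in the knockdown and 559 in the control library. The sum of Cycs and Gm10053 had a log2 ratio of -0.49, beside a log2 fold of -0.47 for Cycs alone.

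Complex IV members from the nucleus showed a similar split, 4 above and 8 below, with a median log2 fold of -0.04. Cox5a, which lies on the matrix side next to the catalytic subunits, had 866 counts in the knockdown and 1291 in the control library, a ratio of 0.717 (0.657 to 0.782). Cox7b had 2235 counts in the knockdown and 3275 in the control library, a ratio of 0.729 (0.691 to 0.770). The most abundant members lay near 1. Cox6a1 had 8437 counts in the knockdown and 9329 in the control library, a ratio of 0.966 (0.938 to 0.995), and Cox8a had 4383 counts in the knockdown and 4965 in the control library, a ratio of 0.943 (0.906 to 0.983). Nuclear members of the complex summed to 2300 CPM in the knockdown and 2369 CPM in the control library, a ratio of 0.971 (0.957 to 0.985). With its 3 mitochondrial subunits the ratio of the whole complex was 1.23, and it was 0.989 without mt-Co1. The latter value rests mostly on the nuclear members, since the counts of mt-Co2 and mt-Co3 are few and uncertain, as described with their copies.

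Several complex IV subunits have isoforms made in particular tissues. In the Cox4i, Cox6a, Cox6b and Cox7a sets, the isoform that most tissues use carried most of the counts in both libraries. Cox4i1 had 3905 counts in the knockdown and 3818 in the control library, a ratio of 1.09 (1.04 to 1.14). Cox4i2, the isoform of lung and of low oxygen, had 2 counts in the knockdown and 5 in the control library. Cox6a2, the isoform of heart and skeletal muscle, had 0 counts in the knockdown and 10 in the control library. It was 3.12-fold lower when the knockdown library is set to the floor of 3 counts. The interval of its ratio ran from 0 to 0.477. Cox7a1, also a heart and muscle isoform, had 17 counts in the knockdown and 10 in the control library, a ratio of 1.82 (0.786 to 4.44). Cox7a2, its widely expressed counterpart, had 1529 counts in the knockdown and 1888 in the control library, a ratio of 0.865 (0.808 to 0.926). Cox7a2l, a related protein that joins complexes III and IV into supercomplexes, had 2178 counts in the knockdown and 1858 in the control library and a ratio of 1.25 (1.18 to 1.33). A pseudogene, Gm6969, matches 201 of its bases exactly and had 2239 counts in the knockdown and 1716 in the control library, so the value of Cox7a2l is uncertain. Cox6b2, known as the testis isoform of Cox6b, was plainly present, with 887 counts in the knockdown and 761 in the control library. It made up 24.1% (22.7% to 25.5%) of the Cox6b counts in the knockdown library and 20.1% (18.9% to 21.4%) in the control library, and Cox6b1 had a ratio of 0.989 (0.939 to 1.04). Ndufa4, a subunit first placed in complex I, with which it is counted here, and now in complex IV, had 2698 counts in the knockdown and 3643 in the control library, a ratio of 0.791 (0.753 to 0.832). Its paralogue Ndufa4l2 had 18 counts in the knockdown and 7 in the control library, a ratio of 2.75 (1.10 to 7.78), and did not pass the minimum.

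The nuclear members of complex V, the ATP synthase, carried most of its counts, though those of mt-Atp6 are uncertain, as described with its copy. These nuclear members summed to 4959 CPM in the knockdown and 5456 CPM in the control library, a ratio of 0.909 (0.900 to 0.918), with 6 above and 10 below and a median log2 fold of -0.05. Atp5b, the catalytic beta subunit, had 22849 counts in the knockdown and 28874 in the control library, a ratio of 0.846 (0.831 to 0.860). Atp5a1, the alpha subunit, had 19531 counts in the knockdown and 22335 in the control library, a ratio of 0.934 (0.917 to 0.953). These genes carry most of the sum, and without Atp5b the ratio of the whole complex was 0.937.

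The membrane ring of complex V is made of subunit c, whose mature protein is the same from Atp5g1, Atp5g2 and Atp5g3. Their messages did not lie on the same side of the control level. Atp5g1 (chr11:96068852-96075670, minus strand) had 1107 counts in the knockdown and 2045 in the control library, which is 70.2 CPM in the knockdown and 121 CPM in the control library and a ratio of 0.578 (0.537 to 0.623), the lowest of all members past the minimum. Atp5g3 (chr2:73908447-73911326, minus strand) had 5486 counts in the knockdown and 7346 in the control library, which is 348 CPM in the knockdown and 436 CPM in the control library and a ratio of 0.798 (0.770 to 0.827). Atp5g2 (chr15:102662864-102672352, minus strand) had 2539 counts in the knockdown and 2094 in the control library, which is 161 CPM in the knockdown and 124 CPM in the control library and a ratio of 1.30 (1.22 to 1.37). Atp5g2 thus took 27.8% (26.9% to 28.7%) of the counts of the 3 genes in the knockdown library and 18.2% (17.5% to 19.0%) in the control library, while Atp5g1 took 12.1% (11.5% to 12.8%) in the knockdown and 17.8% (17.1% to 18.5%) in the control library. A pseudogene, Gm10039, matches 411 bases of Atp5g1 with 1 mismatch and had 943 counts in the knockdown and 1405 in the control library. Summed with it, Atp5g1 had a log2 ratio of -0.66, beside a log2 fold of -0.79 alone.

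**Figure D4:**
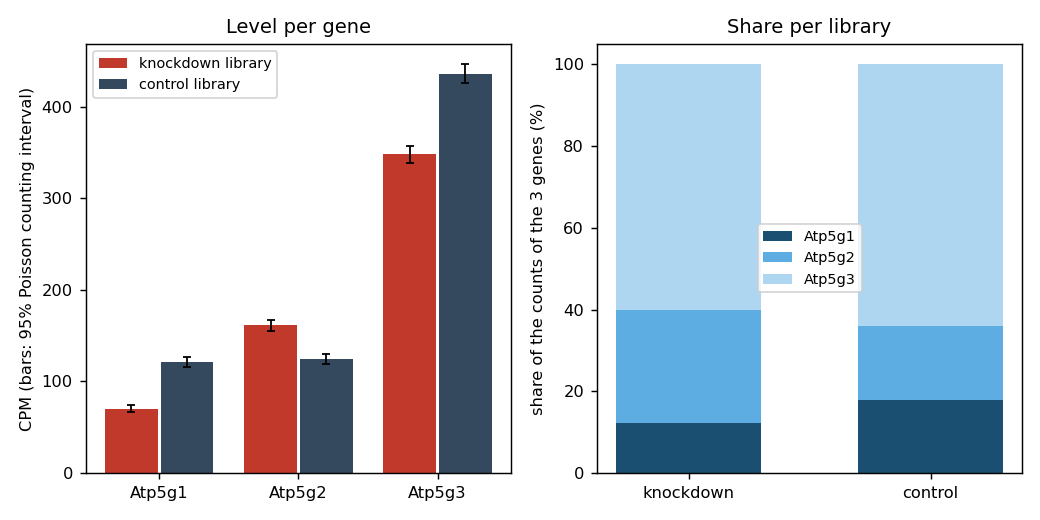
The 3 genes of subunit c of complex V, with the level in CPM in the knockdown and control library (left, bars with 95% Poisson counting intervals) and each gene's share of their counts (right). Atp5g1 and Atp5g3 were lower and Atp5g2 was higher in the knockdown library, where Atp5g2 took 27.8% of the counts against 18.2% in the control library.

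Promoters were examined for sequences the symbol rule did not use. NRF1, nuclear respiratory factor 1, binds a GC-rich palindrome, and GABP and YY1 are further factors known to act at such promoters. RefSeq promoters of GRCm38.p6, from 250 bases before to 50 after the start, were matched to 75 of the 91 nuclear members and searched on both strands. The exact palindrome is the run of capitals in the Atp5g2 promoter printed here, and the looser form, which takes in the exact one, lets its single A be any base. The looser form was present in 25.3% of the matched members and in 5.19% of the 27025 genes with a promoter. The exact form was in 9.33% of members and 1.07% of genes. CCGGAAG of the ETS family, to which GABP belongs, was in 24% of members and 9.93% of genes, and AAGATGGC of YY1 in 14.7% and 3.19%. The 27025 genes were not limited to those past the minimum or matched to the members for base content. Whether the shares would differ as much against such genes was not tested. The 19 members holding the looser form had a median log2 fold of -0.06, and the 55 other matched members past the minimum 0.01. For the ETS and YY1 motifs the difference went the other way. The 18 with CCGGAAG had a median of 0.01 and the 56 without it -0.06. The 11 with AAGATGGC had 0.02 and the 63 without it -0.05. Under every other scaling of the libraries the motif medians above 0 fall below 0. The differences between them stay, since all genes shift alike. The promoters of the subunit c genes are shown because these genes encode the same mature protein and differed in direction. Capitals mark the looser form, which is in the windows of Atp5g2 and Atp5g3 and not in that of Atp5g1. The RefSeq start of Atp5g2 lies inside the span that the table gives for the gene.
Atp5g1, chr11:96075582-96075881, minus strand: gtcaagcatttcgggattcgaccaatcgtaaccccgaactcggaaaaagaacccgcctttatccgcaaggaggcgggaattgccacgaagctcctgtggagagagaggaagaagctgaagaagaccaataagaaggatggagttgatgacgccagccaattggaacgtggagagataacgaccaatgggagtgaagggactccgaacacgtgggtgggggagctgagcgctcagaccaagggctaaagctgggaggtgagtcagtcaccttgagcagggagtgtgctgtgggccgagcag
Atp5g2, chr15:102670998-102671297, minus strand: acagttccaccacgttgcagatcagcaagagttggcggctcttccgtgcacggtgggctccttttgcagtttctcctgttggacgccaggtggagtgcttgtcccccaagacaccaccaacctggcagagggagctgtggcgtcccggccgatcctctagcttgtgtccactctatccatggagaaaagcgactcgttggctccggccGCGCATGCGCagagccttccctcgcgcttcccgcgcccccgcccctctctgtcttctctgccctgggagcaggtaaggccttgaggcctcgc
Atp5g3, chr2:73911277-73911576, minus strand: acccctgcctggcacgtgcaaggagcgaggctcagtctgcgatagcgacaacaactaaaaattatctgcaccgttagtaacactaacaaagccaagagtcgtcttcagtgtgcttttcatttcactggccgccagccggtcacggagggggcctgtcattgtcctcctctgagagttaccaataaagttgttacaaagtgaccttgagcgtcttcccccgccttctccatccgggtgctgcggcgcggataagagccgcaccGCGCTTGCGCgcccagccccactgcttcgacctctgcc

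Other genes that build or serve the respiratory chain were grouped in 12 lists, whose median log2 folds lay between -0.21 and 0.11. Of the 16 genes of mitochondrial DNA replication and transcription, 11 were above and 5 below, 0 of them past 2-fold, with a median log2 fold of 0.11. Ssbp1, which coats single-stranded mitochondrial DNA, had 1192 counts in the knockdown and 988 in the control library, a ratio of 1.29 (1.18 to 1.40), and the termination factor family members Mterf3 and Mterf4 had ratios of 1.23 and 1.21. Mterf1a of the same family, which averaged under 10 CPM and was named after its value was seen, had a ratio of 0.619 (0.430 to 0.884) and lay furthest off in the list. Its paralogue Mterf1b had a ratio of 1.37 (0.942 to 1.99), and both values are uncertain where counting could split reads between them. The 15 genes of mitochondrial RNA stability and processing had a median log2 fold of 0.04, with 8 above and 7 below. Fastkd1, of a family of mitochondrial RNA-binding proteins, had a ratio of 0.658 (0.526 to 0.820), Trmt10c, a subunit of mitochondrial RNase P, 0.795 (0.676 to 0.934), and Mtpap, the mitochondrial poly(A) polymerase, 1.30 (1.13 to 1.5). All 77 mitochondrial ribosomal protein genes were within 2-fold, with 38 above and 39 below and a median log2 fold of -0.0020. Among those averaging 10 CPM or more, Mrpl42, Mrpl14 and Mrpl52 lay furthest off, with ratios of 0.673, 0.679 and 0.680.

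Regulators of these genes had a median log2 fold of -0.17, with 3 of 10 above and 7 below. The PGC-1 coactivators, which raise mitochondrial gene expression, did not lie on the same side. Ppargc1a had 164 counts in the knockdown and 255 in the control library, a ratio of 0.687 (0.561 to 0.839). Ppargc1b had 86 counts in the knockdown and 38 in the control library and a ratio of 2.42 (1.63 to 3.64). Pprc1 had a ratio of 0.815 (0.755 to 0.879) and Gabpb1, a subunit of GABP, 0.850 (0.764 to 0.945).

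Assembly factors of the other complexes had medians between -0.18 and 0.03 on the log2 scale. Lyrm7, which helps insert the Rieske protein into complex III, had 22 counts in the knockdown and 88 in the control library, a ratio of 0.267 (0.159 to 0.430). It was the only gene past 2-fold among the 6 of its list, where Uqcc3 had a ratio of 1.41, Bcs1l 0.839 and Uqcc2 0.823. For complex IV, Surf1 had 783 counts in the knockdown and 582 in the control library and a ratio of 1.44 (1.29 to 1.60), Pet100 1.39 and Higd2a 1.37, and 10 of 18 genes were above. For complex V, Atpif1, the inhibitor of its ATPase activity, had a ratio of 0.744 (0.612 to 0.901), Usmg5 0.832 and Atpaf2 1.31. Complex II factors were represented by 3 genes, of which Sdhaf2 had a ratio of 0.988. Complex I factors not named Nduf all had intervals that held 1, and of these Tmem126b, Timmdc1 and Tmem186 lay furthest off, with ratios of 0.860, 0.896 and 1.11.

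Coenzyme Q synthesis included the gene furthest off. Coq8a, an atypical kinase of this pathway, had 362 counts in the knockdown and 15 in the control library, a ratio of 25.8 (15.4 to 46.6). In GENCODE M21 its 3′ end overlaps that of Cdc42bpa on the opposite strand, so the value is uncertain if reads were counted without strand. Its paralogue Coq8b had 708 counts in the knockdown and 398 in the control library, a ratio of 1.90 (1.68 to 2.15), and Coq4 a ratio of 1.38 (1.16 to 1.65). The list as a whole had 7 genes above and 6 below, with a median log2 fold of 0.03.

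Genes that feed the chain or move substrates across the membranes were split as follows. In both lists more intervals lay below 1 than above it, 10 against 4. Over all genes past the minimum, 33.6% of intervals lay below 1 and 33.2% above it. Of the 18 genes of the citric acid cycle and pyruvate dehydrogenase, 6 were above and 12 below, with a median log2 fold of -0.11. The subunits of isocitrate dehydrogenase differed in direction, Idh3g with a ratio of 1.43 (1.36 to 1.5) and Idh3a with 0.757 (0.718 to 0.799). Of the 15 genes of outer membrane channels, import and carriers, 4 were above and 11 below, with a median log2 fold of -0.21. The import receptor Tomm70a had a ratio of 0.723 (0.679 to 0.769), the import channel Tomm40 0.756 (0.714 to 0.801), and prohibitin Phb 1.30 (1.23 to 1.38).

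**Figure D5:**
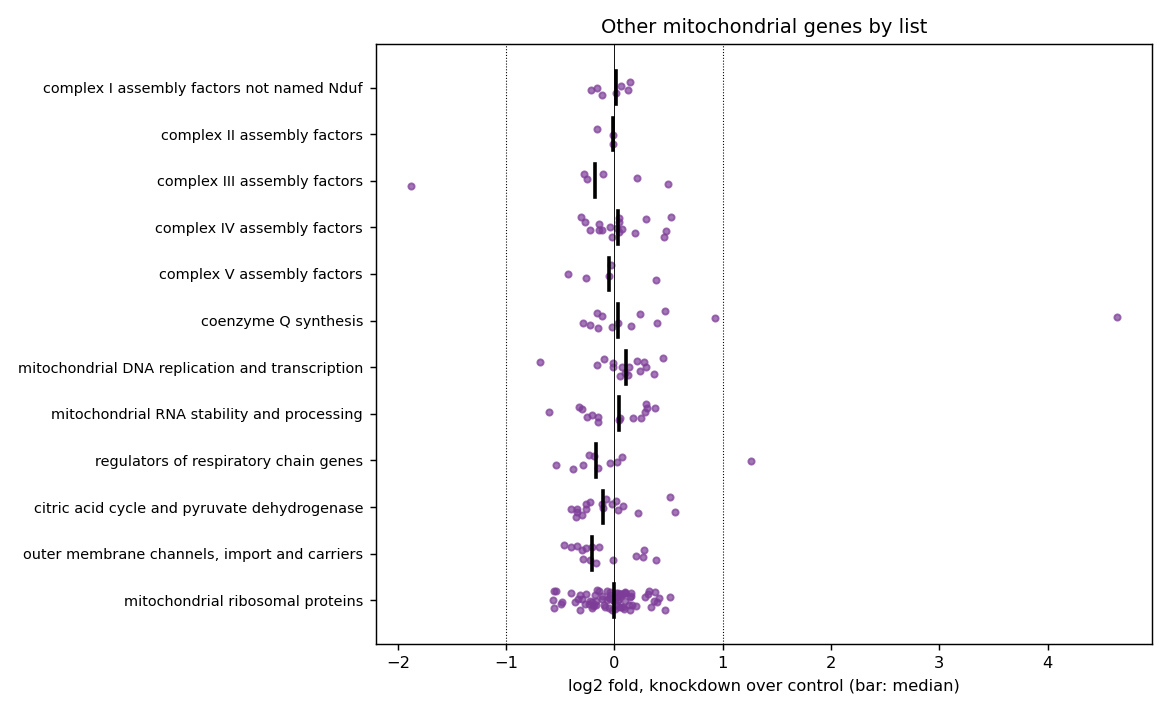
Log2 fold, knockdown over control library, of genes in 12 lists of other mitochondrial functions, each point a gene past the minimum and each black bar the median of its list. Medians lie between -0.21 and 0.11, and the genes past 2-fold (dotted lines) are Lyrm7 at -1.88, Ppargc1b at 1.26 and Coq8a at 4.64.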

How the data were processed

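The authors deposited 1 table of genes that holds a count column for each library, per the file headers, and its values are whole numbers. The deposited normalised values are CPM, each the count divided by a constant of its library, with 0.5 standing in for a count of 0. The deposited table also gives the ratio of the CPM (knockdown over control) and its log2, and the deposited p-values name no test, per the file headers, and of these only the CPM were used, as an alternative scaling. Bowtie2 2.2.3, TopHat2 2.0.12, HTSeq 0.6.0 and the build mm9 are named, with no order or settings, per the submitters' processing notes. The positions it gives match GRCm38: all 104 members overlap the gene of the same ID in GENCODE M21, 90 with the same start and end.

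Counts were scaled with TMM factors (edgeR 4.0.16, R 4.3.3) over all genes. For log2 folds 0.5 was added to each count before division by the scaled library, and ratios carry no addition. The minimum was a mean of 1 CPM. Intervals (SciPy 1.17.1) and floors of 3 counts cover counting error only, since copies made by PCR are not independent molecules. Kilobases are of merged GENCODE M21 exons. The longest transcript of each member was searched against transcripts of other genes with BLAST 2.17.0 (at least 95% identity over 100 bases), and the chromosome 1 copies were aligned base by base. The calculation was tested on simulated data.

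The members and the lists were chosen with earlier results of these data known. Named members are all mitochondrially encoded ones, those past 2-fold, the 3 with the largest log2 fold and the 2 with the highest CPM of each complex, and the isoform sets. Of each other list up to 3 genes averaging 10 CPM or more, and any past 2-fold, are named. Some genes that these rules pick are not reported here. Alternatives were DESeq2 1.42.0 size factors, other scalings, other minimums, a prior count of 5, 1.5-fold and other memberships.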

Additional observations from a re-analysis of the deposited data

How the results depend on the processing

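With 1 library per group, depth limits the genes of few counts, and no alternative can stand in for a replicate. No paired analysis was possible because each group has 1 library. The directions of the mitochondrial and of the nuclear sums and medians held under every alternative computed for them, and 11 of 12 mitochondrial members stayed above their control level under each of 3 other scalings. The scalings could not have turned these directions, since each moved every log2 fold down, by -0.05 to -0.02. The nuclear sum and median were already below their control level. The lowest of the 11 mitochondrial members, mt-Nd1 at a log2 fold of 0.08, lay above it by more than the shift. Nuclear members split into 32 above and 55 below with DESeq2 size factors and 30 and 57 with total counts. Ratios of summed CPM for complexes I, III, IV and V, nuclear and mitochondrial members were 1.21, 1.22, 1.22, 0.899, 0.947 and 1.26 with DESeq2 size factors. For complexes I to V, nuclear and mitochondrial members they were 1.18, 0.985, 1.19, 1.19, 0.876, 0.923 and 1.23 with total counts. With total counts outside the mitochondrial genome they were 1.19, 0.994, 1.20, 1.20, 0.884, 0.932 and 1.24. With the authors' normalised values they were 1.18, 0.985, 1.19, 1.19, 0.876, 0.924 and 1.23, so the sum of complex II changed side under these 3 scalings, by their construction. The median log2 fold of the mitochondrial members, 0.41, was 0.36 with total counts and with the authors' values, 0.37 with total counts outside the mitochondrial genome, 0.46 with no minimum and 0.36 with a minimum of 10 CPM. It was 0.35 with the chromosome 1 copies added and 0.36 without the 5 copied genes, both chosen after the data were seen. Without the member with the most counts, the sum ratios of complexes I, III, IV and V were 1.30, 0.941, 0.989 and 0.937. The value of complex III is then that of its nuclear members. That of complex IV is mostly so, with mt-Co2 and mt-Co3 uncertain. With no minimum, 1 member was at least 2-fold higher (Ndufa4l2) and 2 were lower (Cox4i2 and Cox6a2), and at 1.5-fold 5 were higher and 3 lower. The mitochondrial share of member counts was 79.0% in the knockdown and 73.8% in the control library without members that are not subunits, 78.7% in the knockdown and 73.5% in the control library with the copies added, and 73.3% in the control library without the copied genes.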
